A study of Homo sapiens with 6 samples.

Results

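The genes described are 10 members of the NF-kB system: the 5 subunits NFKB1, NFKB2, RELA, RELB and REL, and 5 inhibitors, NFKBIA, NFKBIB, NFKBIE, NFKBIZ and TNFAIP3. They were chosen by gene symbol, and all 10 were measured among 18417 genes on Affymetrix arrays. RNA came from A549, a human lung adenocarcinoma cell line, as stable cells that the labels call C (genotype control, 3 arrays) and P1 (genotype H2AX knockdown, 3 arrays). Both had been starved of serum overnight and then exposed for 48 h to VP-16 (etoposide), which traps topoisomerase II on cut DNA and so causes double-strand breaks, and per the design text each array of a group stands for its own experiment. How the knockdown was made, and from how many clones, is not given in the sources used here. No array without the drug was analysed, so the comparison asks how the 2 kinds of cell differ under it.

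NF-kB is a family of transcription factors that act as dimers. In resting cells IkB proteins such as those of NFKBIA, NFKBIB and NFKBIE hold the dimers in the cytoplasm. Cytokine receptors and DNA breaks activate the IkB kinase complex, the IkB proteins are degraded, and the dimers enter the nucleus and switch on genes of inflammation and survival. Several of the switched-on genes are parts of the system itself: NFKBIA and TNFAIP3 restrain it, and NFKB1, NFKB2, RELB and REL supply new subunits.

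Since that feedback runs through NF-kB sites in DNA, the motif was looked for in the promoters of these genes. RefSeq promoter windows (GRCh38.p14, 250 bases before to 50 after a start site) were found for 8 of the 10 genes, 14 windows in all, and RELB and NFKBIE had no entry. The 10-letter NF-kB consensus, read on both strands, matched in 9 of the 14 windows and in 7 of the 8 genes. Of all 35116 windows 11.3% held a match, and of all 27305 genes 13.3% did. RELA was the gene whose windows held none. The stretches below show, in capitals, a choice of the matches before a start site in the genes whose values are given in full, 1 or more a gene, each read 5′ to 3′ along the gene's own strand. Overlapping matches form 1 capital run.
NFKBIA, chr14:35404796-35404855, minus strand: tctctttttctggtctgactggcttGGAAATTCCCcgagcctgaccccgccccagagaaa
TNFAIP3, chr6:137867167-137867238, plus strand: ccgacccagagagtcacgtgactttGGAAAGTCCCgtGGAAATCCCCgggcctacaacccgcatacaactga
NFKBIZ, chr3:101827742-101827801, plus strand: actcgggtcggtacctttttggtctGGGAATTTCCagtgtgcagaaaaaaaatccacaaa
NFKB1, chr4:102501285-102501344, plus strand: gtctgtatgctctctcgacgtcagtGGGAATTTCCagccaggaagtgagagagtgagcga
REL, chr2:60881502-60881562, plus strand: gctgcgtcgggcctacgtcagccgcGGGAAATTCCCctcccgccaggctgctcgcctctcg
NFKB2, chr10:102394462-102394490, plus strand: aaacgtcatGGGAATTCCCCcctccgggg
NFKB2, chr10:102395674-102395703, plus strand: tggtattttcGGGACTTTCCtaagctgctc

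The matches lay close to the start in most of these stretches, counting the base before the start as −1. They ran from −81 to −72 in NFKBIA, from −67 to −46 over the 2 matches of TNFAIP3, from −49 to −40 in NFKB1 and from −47 to −37 in REL. NFKB2 had 3 windows. The middle one held the run of overlapping matches shown (−107 to −97) and another match at −78 to −69. The third held matches at −21 to −12, shown, and at −176 to −167. The matches of NFKBIZ lay farther off, at −223 to −214 in the window shown and at −239 to −230 in the other. The matches shown for NFKB1 and NFKBIZ had the same 10 letters. NFKBIB had overlapping matches before 1 of its 2 starts, and its window was also the only one with the AP-1 motif TGANTCA, which 7.71% of all windows held. These are matches of letters and not measured binding, and binding was not measured in these data.

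The arrays carry limits that touch every value below. The probe set of H2AX, the gene named in the label, read 5.11, 5.27 and 5.26 in control replicates 1 to 3 and 5.28, 5.17 and 5.49 in the knockdown-labelled ones, a log2 difference of 0.10 ± 0.161 (SE), with a limma adjusted p of 0.823 and a 2-sided exact permutation p of 0.4, where 3 against 3 arrays allow no p under 0.1. The label's knockdown is therefore not seen in the signal, and each direction given here compares the arrays labelled H2AX knockdown with the control arrays. With genes placed in 5 equal bins by mean signal, the median difference was 0.15 in the dimmest, bin 1, and 0.07 in bin 2. It was −0.01 in bin 3, −0.10 in bin 4 and −0.25 in the brightest, bin 5. The SD of signal over all probe sets was 1.86, 1.77 and 1.79 in control replicates 1 to 3. It was smaller, at 1.60, 1.74 and 1.71, in the knockdown-labelled ones, so their signals spanned a narrower range. The 10 genes are of middle to high signal: 5 lay in bin 5, 4 in bin 4 and 1, NFKB1, in bin 3. Of 10 A549 and epithelial markers 9 were above the median signal, led by KRT8 at the 99.8th percentile, and the exception was EPCAM at the 17.2th. The leukocyte markers PTPRC and CD3E lay at the 7.97th and 9.83th percentiles. Of 7 immune markers 3 were above the median, and their summed linear signal was 480 to 644 in the controls and 372 to 460 in the knockdown-labelled arrays. That sum was mostly CD68, at a mean log2 signal of 8.70, with CD14 next at 4.19. Their median difference was 0.10. PTPRC, CD3E, CD79A and CD14 read higher (0.12, 0.12, 0.30 and 0.10), and LYZ, CD68 and ITGAM lower (−0.40, −0.46 and −0.05). Of 6 fibroblast markers 3 were above the median, and their sum was 71.7 to 94.4 and 86.5 to 103. All 6 read higher in the knockdown-labelled arrays, with a median difference of 0.37. The brightest, COL1A1, had 0.04, and the dimmest, LUM, at the 1.09th percentile, had 0.47. Of 4 endothelial markers 0 were above the median, and their sum was 30.8 to 35.7 and 31.7 to 36.3. The part of these marker genes in the results was not tested.

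Of the 10 genes 9 read lower and 1, RELB, read higher in the knockdown-labelled arrays. Of all genes 51.5% read lower, 51.3% in bin 3, 66.1% in bin 4 and 85.3% in bin 5. None of the 10 was past the threshold (limma, adjusted p under 0.05 over all genes), which 5 of all genes passed as lower (0.0271%) and 1 as higher (0.00543%). Adjusted p ran from 0.289 for NFKB1 and NFKB2 to 0.914 for NFKBIE. At an unadjusted p under 0.05, 4 were lower (NFKB1, NFKB2, NFKBIA and NFKBIZ) and 0 higher. Of all genes 8.38% were lower (5.32% in bin 3, 11.3% in bin 4 and 22.9% in bin 5) and 3.78% higher. The median difference of the 10 was −0.37 on the log2 scale, against −0.01 over all genes, and it was −0.39 for the 5 subunits and −0.35 for the 5 inhibitors. In 5 genes every knockdown-labelled array read below every control (these 4 and REL). Of all genes 9.82% did so, 7.60% in bin 3, 13.3% in bin 4 and 23.2% in bin 5. In 0 of the 10 was every knockdown-labelled array above every control, as it was for 7.17% of all genes. Without control replicate 1, 2 genes remained lower at an unadjusted p under 0.05, NFKB1 and NFKB2, where 3.34% of all genes were lower. Without control replicate 2 there were 6, where 10.5% of all genes were lower. In RNA from whole cultures, fewer cells using a gene and less RNA per cell cannot be told apart.

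**Figure D1:**
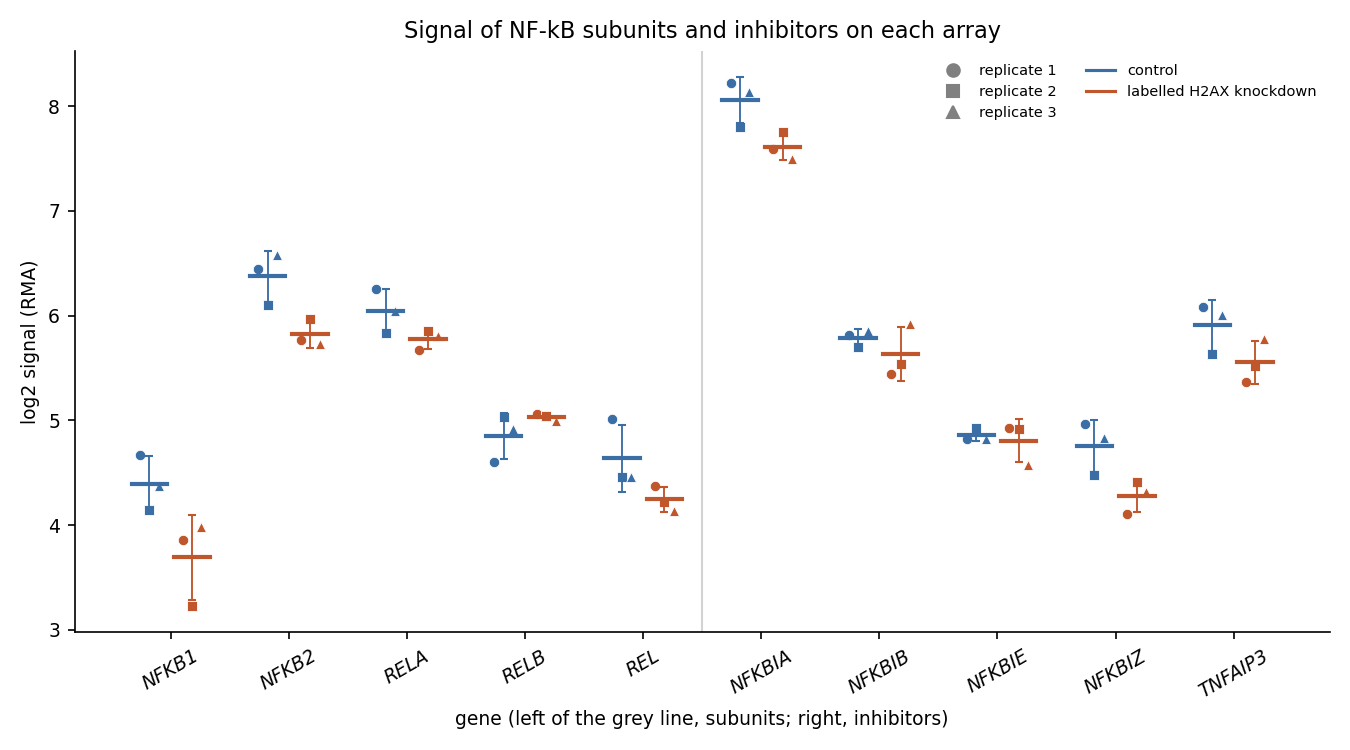
Log2 signal of each gene on each array, with the mean (line) and SD (bar) of 3 control and 3 knockdown-labelled arrays. Marker shapes give the replicate number, and whether it pairs arrays across groups could not be told. The groups are separate for NFKB1, NFKB2, REL, NFKBIA and NFKBIZ and overlap for the other 5 genes.

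NFKB1 encodes a precursor that is cut to the DNA-binding partner of RELA in the most common NF-kB dimer. Its log2 signal (probe set 8096635) was 4.67, 4.15 and 4.37 in control replicates 1, 2 and 3, and 3.86, 3.23 and 3.99 in the knockdown-labelled ones. Every knockdown-labelled array was below every control, and replicate 2 was far below the others of its group. The means were 4.39 ± 0.26 and 3.69 ± 0.40 (SD, n = 3), and the difference of −0.70 ± 0.214 (SE) had a 95% interval from −1.16 to −0.24 (limma adjusted p = 0.289). Only 0.901% of genes had a difference as low or lower. Without knockdown-labelled replicate 2 it was −0.47.

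NFKB2 encodes the corresponding precursor of the alternative pathway, which in its uncut form also holds back RELB. Its signal (probe set 7930074) was 6.44, 6.10 and 6.58 in the controls and 5.77, 5.96 and 5.73 in the knockdown-labelled arrays. The groups did not overlap, and the nearest arrays, control replicate 2 and knockdown-labelled replicate 2, were 0.14 apart. The difference was −0.55 ± 0.173 (SE; 95% interval −0.93 to −0.18; limma adjusted p = 0.289).

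RELA and REL carry transactivation domains and make up the activating side of the canonical dimers. RELA (probe set 7949465) read 6.26, 5.84 and 6.04 in the controls and 5.67, 5.85 and 5.81 in the knockdown-labelled arrays. Control replicate 2 lay inside the range of the other group. The difference of RELA was −0.27 ± 0.167 (SE), hardly apart from the median of −0.25 of its brightness bin, with a 95% interval from −0.63 to 0.09 (limma adjusted p = 0.522). REL (probe set 8042144) read 5.01, 4.46 and 4.46 in the controls and 4.37, 4.23 and 4.14 in the others. Its groups did not overlap, but the high value of control replicate 1 carried much of the difference of −0.39 ± 0.185 (SE; 95% interval −0.79 to 0.0042; limma adjusted p = 0.414). Without that array it was −0.21.

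RELB, the partner of the processed NFKB2 product, was the exception in direction. It (probe set 8029580) read 4.60, 5.03 and 4.91 in the controls and 5.07, 5.04 and 4.998 in the knockdown-labelled arrays. The knockdown-labelled arrays lay close together and within reach of control replicate 2, and control replicate 1 was the low one. The difference was 0.18 ± 0.166 (SE), and the 95% interval from −0.17 to 0.54 holds a small fall as well as a rise (limma adjusted p = 0.667). Without control replicate 1 it was 0.06.

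NFKBIA encodes IkB-alpha, the inhibitor that is degraded and made anew in each round of activation. Its probe set (7978644), at the 98.7th percentile of mean signal, read 8.22, 7.80 and 8.14 in the controls and 7.59, 7.75 and 7.50 in the knockdown-labelled arrays. All 3 knockdown-labelled arrays were below all 3 controls, with a gap of only 0.05 between control replicate 2 and knockdown-labelled replicate 2. The difference was −0.44 ± 0.170 (SE; 95% interval −0.81 to −0.07; limma adjusted p = 0.357).

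TNFAIP3 encodes A20, a ubiquitin-editing enzyme that shuts off signalling upstream of the kinase complex. It (probe set 8122265) read 6.08, 5.63 and 6.01 in the controls and 5.37, 5.52 and 5.77 in the others. Knockdown-labelled replicate 3 read above control replicate 2, so the groups overlapped. The difference was −0.35 ± 0.181 (SE; 95% interval −0.74 to 0.04; limma adjusted p = 0.449).

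NFKBIZ encodes a nuclear IkB protein that works as a cofactor on a subset of targets, IL6 among them, rather than as a cytoplasmic tether. It (probe set 8081386) read 4.97, 4.48 and 4.83 in the controls and 4.11, 4.41 and 4.31 in the knockdown-labelled arrays. The groups did not overlap, and again control replicate 2 and knockdown-labelled replicate 2 were the nearest. The difference was −0.48 ± 0.177 (SE; 95% interval −0.86 to −0.10; limma adjusted p = 0.338).

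The other cytoplasmic IkB genes gave small values with overlapping groups. NFKBIB, which encodes IkB-beta (probe set 8028552), read 5.70 to 5.86 in the controls and 5.44, 5.54 and 5.92 in the knockdown-labelled arrays, with a difference of −0.15 ± 0.172 (SE; 95% interval −0.53 to 0.22; limma adjusted p = 0.735). NFKBIE, which encodes IkB-epsilon (probe set 8126666), read 4.82 to 4.92 in the controls and 4.93, 4.92 and 4.57 in the others, with a difference of −0.05 ± 0.164 (SE; 95% interval −0.41 to 0.30; limma adjusted p = 0.914). In each gene knockdown-labelled replicate 3 stood apart from the rest of its group, above it for NFKBIB and below it for NFKBIE. The intervals of both still allow differences of the size seen in TNFAIP3.

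**Figure D2:**
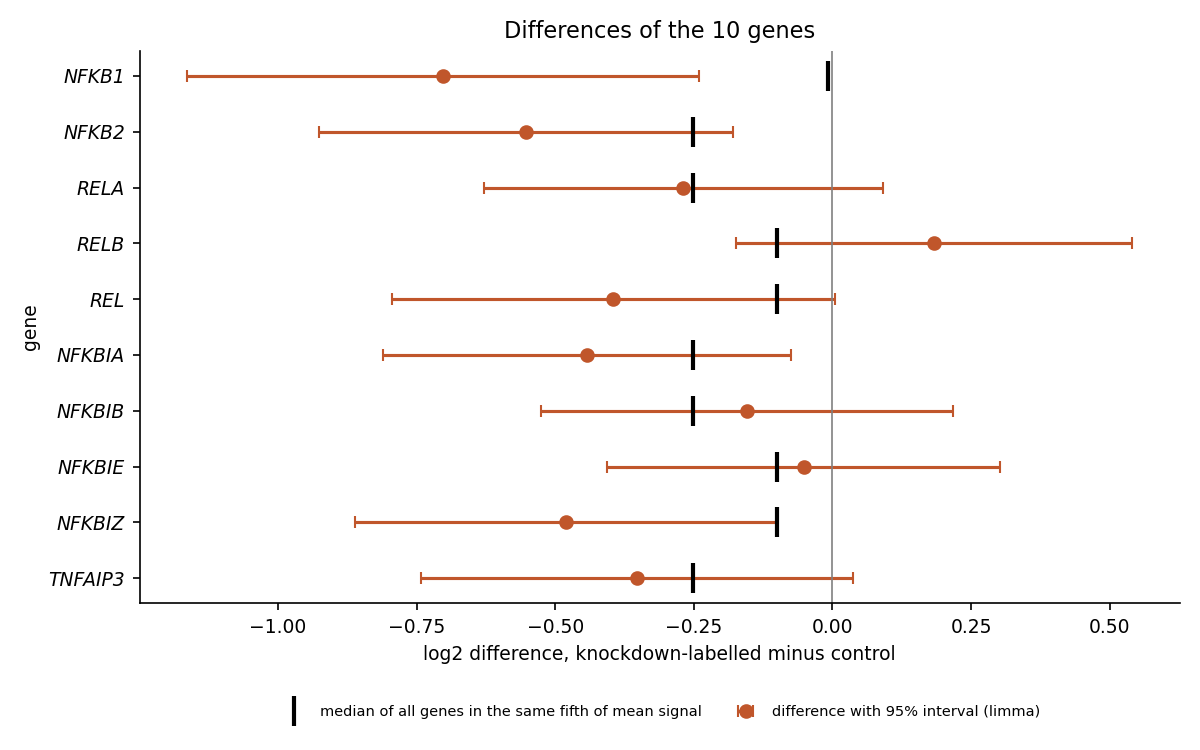
Log2 difference of each gene, knockdown-labelled minus control, with its 95% interval from limma over 6 arrays; black ticks give the median of all genes in the same of 5 bins of mean signal. The interval lies below 0 for NFKB1, NFKB2, NFKBIA and NFKBIZ, and that of NFKB1 also lies below its bin's median of −0.01.

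Because bright genes read lower as a whole, each difference was set beside the median of its bin. NFKB1 stood at −0.69 relative to that median, the widest gap of the 10, and its bin's own median was −0.01. NFKBIZ stood at −0.38, NFKB2 at −0.30, REL at −0.29 and NFKBIA at −0.19 relative to their bins. TNFAIP3 and RELA were close to theirs (−0.10 and −0.02). NFKBIE, NFKBIB and RELB lay above (0.05, 0.10 and 0.28).

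Quantile normalization and cyclic loess divided the genes in a similar way. After quantile normalization and after cyclic loess, which both even out the shift with brightness, NFKB1 kept a difference of −0.67 and −0.69, NFKBIZ of −0.41 and −0.41 and REL of −0.32 and −0.33. NFKB2 shrank to −0.32 and −0.30, NFKBIA to −0.22 and −0.18, TNFAIP3 to −0.15 and −0.13, and RELA to −0.056 and −0.029. NFKBIB (0.032 and 0.070) and NFKBIE (0.057 and 0.068) changed sign, and RELB went to 0.29 and 0.32. In both settings 2 genes were lower at an unadjusted p under 0.05, NFKB1 and NFKBIZ, where 5.58% and 5.23% of all genes were. The third rescaling, with array medians subtracted, did not divide the genes in this way. There 9 of the 10 were below 0, with TNFAIP3 at −0.40, RELA at −0.32 and NFKBIB at −0.20, and RELB stood at 0.13. In that setting 5 were lower at an unadjusted p under 0.05, where 9.45% of all genes were. In none of the 3 rescalings was any of the 10 past the threshold in limma. With array weights 2 were past it, NFKB1 (−0.80) and NFKB2 (−0.66), each with a limma adjusted p of 0.0488. That fit gave control replicate 3 a weight of 5.03 and the other arrays 0.41 to 1.22, and it called 155 genes lower and 36 higher in all.

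**Figure D3:**
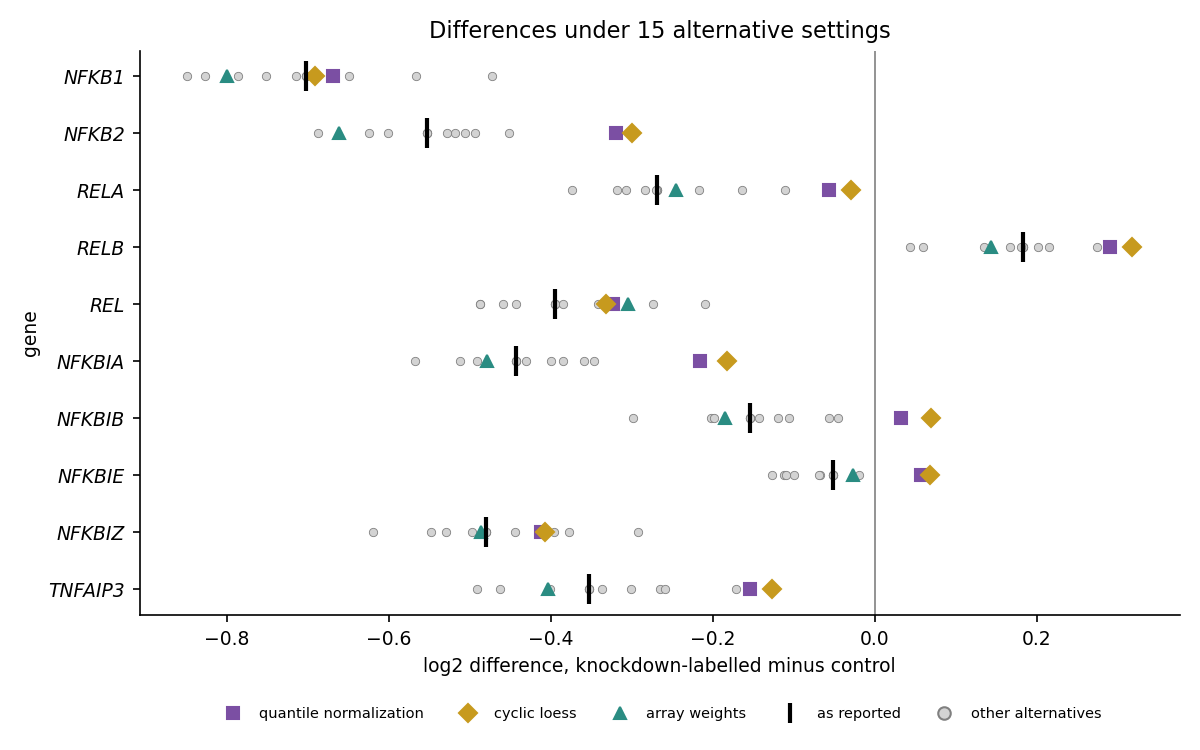
Log2 difference of each gene, knockdown-labelled minus control, as reported (black tick) and under 15 alternative settings (points). NFKB1 stays at −0.47 or lower throughout, while the points of NFKBIB and NFKBIE lie on both sides of 0. The replicate block, the signal filter, the mean of probe sets and the robust fit cannot move these differences.

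The genes also varied together within the controls. Control replicate 2 was the lowest control for 8 of the 10 genes, all but RELB and NFKBIE, though for REL it was nearly equal to control replicate 3. The share of all genes with that control lowest was not counted. Taken over the 10 genes, the median deviation from the mean of the controls was 0.17, −0.23 and 0.07 in control replicates 1, 2 and 3, and −0.42, −0.32 and −0.35 in the knockdown-labelled ones. The knockdown-labelled arrays were thus alike in this median and all below control replicate 2. The brightest bin of all genes gave 0.14, −0.15 and 0.01 in the controls and −0.45, −0.15 and −0.13 in the knockdown-labelled arrays. Its controls stood in the same order as those of the 10 genes, so the brightest genes shared that order. In replicates 2 and 3 of the latter the 10 genes lay lower than the bright genes did, and in replicate 1, the array with the smallest SD of signal over all probe sets, they did not. Only 5 of the 10 are in that bin. Bin 4, with 4 of the 10, gave 0.04, −0.01 and −0.03 in control replicates 1, 2 and 3, so there replicate 3 was the lowest. It gave −0.17, −0.04 and −0.09 in knockdown-labelled replicates 1, 2 and 3, and the 10 genes lay below it in each of these.

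**Figure D4:**
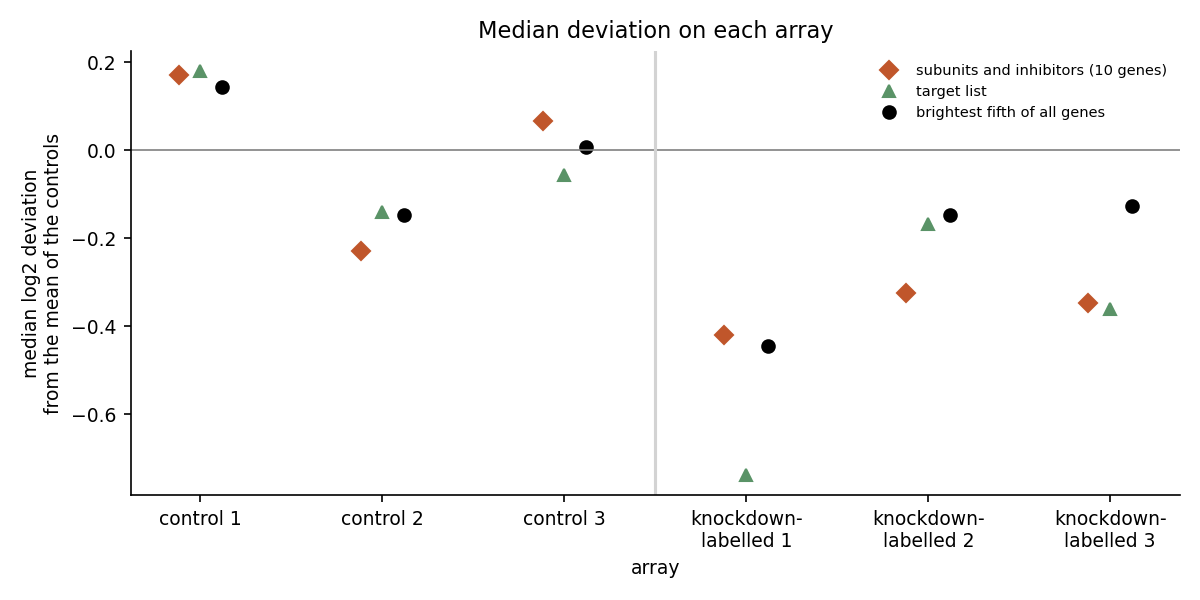
Median log2 deviation from the mean of the 3 controls on each array, for the 10 genes, the NF-kB target list and the brightest of 5 bins of all genes. The 10 genes read −0.42 to −0.32 in the knockdown-labelled arrays; the target list spreads more, from −0.74 to −0.17.

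Profiles over the 6 arrays were compared by the root mean square distance between log2 signals, each minus its own mean. NFKBIA was nearest to NFKB2 among the 10 genes (0.085), and NFKBIZ was nearest to NFKBIA (0.0891). RELB was the farthest of the 10 from each of NFKB1, NFKB2, REL, NFKBIA, NFKBIZ and TNFAIP3, at 0.575 from NFKB1. Among the 9199 other genes at or above the median signal, the nearest to NFKBIA were ELP5 (0.0438), EIF2B4 (0.0446) and ACTR8 (0.054), with differences of −0.39, −0.42 and −0.39. The nearest to TNFAIP3 were GRB2 (0.0313), ZNF106 (0.0363) and SNRPG (0.0395), with differences of −0.35, −0.35 and −0.38. Such close neighbours among so many genes over 6 arrays are a description only.

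The other genes of the pathway gave a median of −0.24, where all genes of bin 4 had −0.10 and those of bin 5 −0.25. Of 45 listed 40 were measured, 16 of them in bin 5, 16 in bin 4 and the rest in bins 1 to 3, and 32 were below 0. Of all genes 66.1% of bin 4 and 85.3% of bin 5 were, and 18.3%, 36.1% and 51.3% of bins 1 to 3. In this list 0 were past the threshold in limma in either direction. At an unadjusted p under 0.05 there were 10 lower and 0 higher, against 8.38% lower over all genes, 11.3% in bin 4 and 22.9% in bin 5. The count was 4 without control replicate 1, where 3.34% of all genes were lower. It was 6 without knockdown-labelled replicate 1 (5.33% of all genes) and 16 without knockdown-labelled replicate 3 (10.9%). The shares with all 6 arrays are the background of the counts by role. Among 10 kinases 9 were below 0: TBK1, an IkB kinase relative, had −0.58 ± 0.206 (SE), while IKBKB, the main kinase of the complex, had −0.09 and MAP3K14, which starts the alternative pathway, 0.03. Among 8 adaptors 4 were below 0 and 4 above, with MYD88, which links interleukin-1 and Toll-like receptors to the kinases, at the bottom.

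MYD88 had the smallest p of the pathway list. It read 6.37, 5.81 and 6.03 in the controls and 5.33, 5.35 and 5.18 in the knockdown-labelled arrays, with no overlap between the groups, and its difference was −0.79 ± 0.177 (SE; limma adjusted p = 0.201). Of 9 genes that attach ubiquitin to signalling proteins or to IkB, 8 were below 0, led by SKP1 (−0.77), part of the ligase that marks IkB, and BIRC2 (−0.49), a ligase at TNF receptors. Among 7 brakes other than TNFAIP3, 6 were below 0, led by ZC3H12A (−0.70), an RNase that destroys cytokine mRNA. Of 4 genes that carry the signal from broken DNA to the kinase complex, 3 were below 0 and 1 above. ERC1 had −0.46, PIDD1 −0.31, ATM, the break-sensing kinase, −0.30 and PIAS4 0.052, and the groups overlapped for all but ERC1.

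Among genes that NF-kB switches on, other than the 10, differences ranged from −1.65 to 0.38. Of 40 listed 39 were measured, 3 were lower past the threshold (SAA2, CXCL1 and IL1B) and 0 higher, and at an unadjusted p under 0.05 there were 20 lower and 0 higher. Their median was −0.46, against −0.37 for the 10 genes, but without knockdown-labelled replicate 1 it was −0.26 against −0.33, and the difference between the lists was not tested. Of the 39, 18 lay in bin 5, 6 in bin 4 and the rest in bins 1 to 3, and 33 were below 0. Of all genes 85.3% of bin 5 and 66.1% of bin 4 were, and 18.3%, 36.1% and 51.3% of bins 1 to 3. At an unadjusted p under 0.05, 22.9% of bin 5 and 11.3% of bin 4 were lower. The shares were 0.326%, 2.06% and 5.32% in bins 1 to 3, and 8.38% over all genes. The list was drawn up with earlier results of these arrays known, so it is no independent evidence of direction. CXCL1, a neutrophil chemokine, read 8.88, 8.58 and 8.68 in the controls and 7.36, 7.49 and 7.54 in the others, a difference of −1.25. SAA2, an acute-phase protein gene, stood at −1.65 and IL1B, interleukin-1 beta, at −1.48, and the limma adjusted p was 0.016 for each of the 3. Next by p were VCAM1, which lets leukocytes adhere (−1.21), the chemokine gene CCL2 (−1.13) and IL1A, interleukin-1 alpha (−1.12), with limma adjusted p of 0.0591, 0.074 and 0.074. These 6 are the targets with the smallest p of 39. SAA2 had 2 probe sets, of which the brighter was used, while CXCL1 and IL1B had 1 each. SAA1, also listed, stood at −0.02, with a signal at the 14.6th percentile. With the probe sets of each gene averaged, 2 targets were past the threshold, and 2 were with replicate number fitted as a block. The count of targets past the threshold was 1 without control replicate 2, and 0 when control replicate 1 or 3, or replicate 1 or 2 of the knockdown-labelled arrays, was omitted; the count was also 0 after quantile normalization and after cyclic loess.

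**Figure D5:**
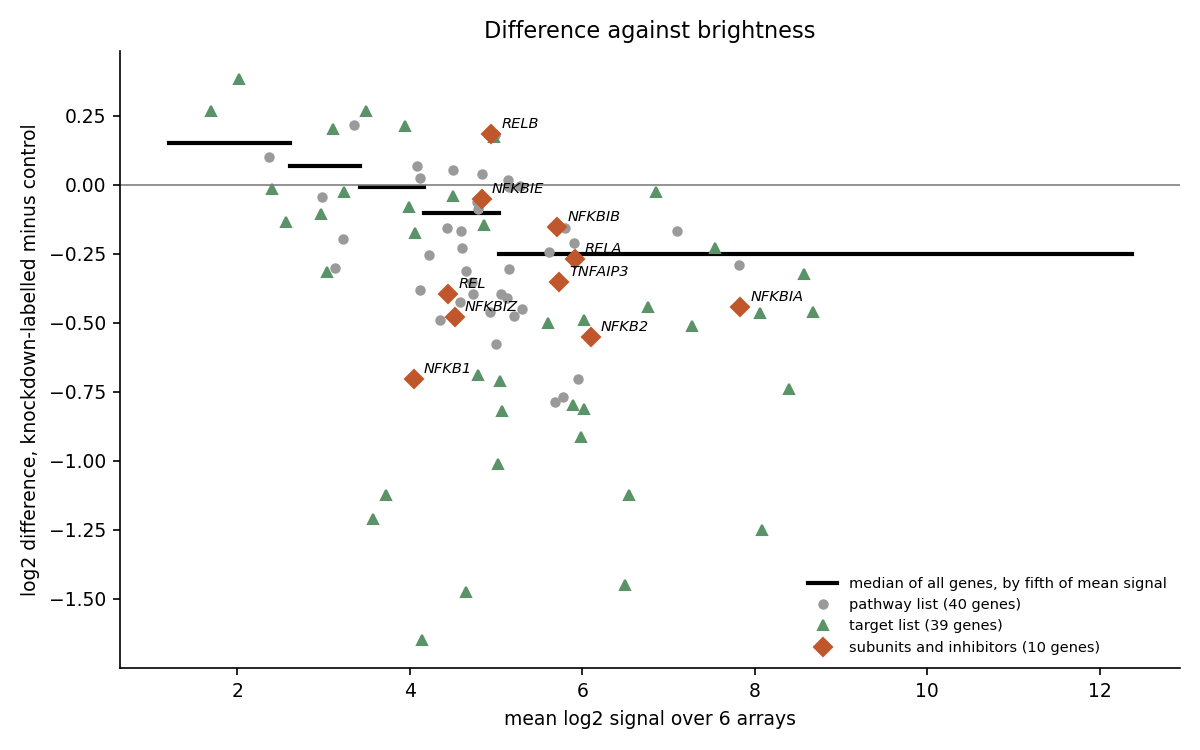
Log2 difference, knockdown-labelled minus control, against mean log2 signal for the 10 genes, the pathway list (40 genes) and the target list (39 genes); black lines give the median of all genes in 5 bins of mean signal. The 10 genes lie between 0.18 and −0.70, and the targets between 0.38 and −1.65.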

How the data were processed

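The deposited values are log2 signals of 33297 probe sets on 6 arrays, made by the authors with RMA per the submitters' processing notes, whose version and genome build are not given in the sources used here. Their log2 scale was read from the values, 0.611 to 13.2. RMA compresses differences of dim probe sets, and signal over background could not be read. Probe sets were named through the annotation table of the platform, whose symbols may be dated: 19460 had 1 gene, 1754 several and 12083 none, and the last 2 kinds were not named. The single-gene probe set with the highest mean over 6 arrays stood for a gene, and each of the 10 genes had 1. Knockdown-labelled minus control was tested with limma 3.58.1 (lmFit, eBayes, R 4.3.3) on all 18417 genes, 2-sided, without covariate or filter on low signals, with p-values adjusted by Benjamini and Hochberg's method over the whole table and called under 0.05. Precision is limited by the number of arrays. The procedure was tested on simulated data with independent noise in each gene. Those data held no shift with brightness, so that test cannot tell how the procedure fares under such a shift. The members, lists and alternatives were chosen with earlier results of these data known, so no test of a list was made. Named were the members, H2AX, the 6 genes of each list with the smallest p, the 3 genes most like NFKBIA and like TNFAIP3, and, chosen after their values were seen, IKBKB, MAP3K14, ATM, PIDD1 and PIAS4. Roles within the pathway list were assigned after its values were seen. Figures were drawn with matplotlib 3.10.9. Alternatives were a replicate block, a filter at the median signal, 3 rescalings, the mean of all probe sets, array weights, a robust fit with an intensity trend, and leaving out each array.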

Additional observations from a re-analysis of the deposited data

How the results depend on the processing

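With 3 arrays a group and SEs of 0.164 to 0.214 for the 10 genes, no log2 difference of the size seen here passed the adjustment over all genes without array weights. Over 15 alternatives NFKB1 ran from −0.85 to −0.47, at an unadjusted p under 0.05 in all 15, and NFKB2 from −0.69 to −0.30, in 13. All of these reuse the same arrays. The replicate block, the filter, the mean of probe sets and the robust fit can change p but not the difference of these genes. Leaving out control replicate 1 and knockdown-labelled replicate 1 together was added after seeing the data. NFKBIB turned to 0.032 (quantile normalization) and 0.070 (cyclic loess), and NFKBIE to 0.057 and 0.068; NFKBIE ran from −0.13 to 0.067 over the settings that leave out arrays, the highest without knockdown-labelled replicate 3. The cause was not tested. With array weights NFKB1 (−0.80) and NFKB2 (−0.66) passed the threshold, so 2 of the 10 did. The count lower at an unadjusted p under 0.05 was 2 after quantile normalization (5.58% of all genes), 2 after cyclic loess (5.23%) and 2 without both replicates 1 (2.94%). It was 2 to 6 with 1 array left out (3.34% to 10.9% of all genes). The median of the 10 was −0.18, −0.15 and −0.22 in the first 3 of these settings, and −0.49 to −0.24 with 1 array left out.

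Deviations from the group means had correlations of −0.31, −0.02 and 0.07 between same-numbered arrays, and from −0.39 to 0.37 between differently numbered ones. With 3 arrays a group these values cannot tell whether a number stands for a shared experiment. With the replicate block 3 genes were lower and 0 higher past the threshold, and 0 of the 10 were. At an unadjusted p under 0.05, 4 of the 10 were lower in that fit, against 6.97% of all genes. Over all genes the counts lower and higher were 14 and 2 with the filter (fewer genes tested), 155 and 36 with array weights, 3 and 0 with all probe sets averaged, and 4 and 0 with array medians subtracted. They were 0 and 0 in limma after quantile normalization, cyclic loess and without both replicates 1 (1495, 1511 and 876 genes at an unadjusted p under 0.05), and 0 to 8 and 0 to 1 with 1 array left out. The pathway list had 2 lower past the threshold with array weights. Without both replicates 1 its median was −0.10, with 2 lower at an unadjusted p under 0.05, where 2.94% of all genes were. With 1 array left out 4 to 16 were, against 3.34% to 10.9% of all genes. The target list had 5 lower past the threshold with the filter, 12 with array weights, 0 after quantile normalization or cyclic loess, 0 without both replicates 1 and 0 to 4 with 1 array left out, with medians of −0.53 to −0.17 over these. In these alternatives H2AX stayed between 0.01 and 0.28.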
